A study of Mus musculus with 12 samples.

Results

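The respiratory chain was described here through 130 of the 52636 genes in the deposited table. Members were taken by gene name: all names that begin with Nduf, Uqcr, Atp5, mt- or Cox4 to Cox8, together with Sdha, Sdhb, Sdhc and Sdhd, without names that carry -ps. The nuclear genome encodes 93 of them, and 37 lie on the mitochondrial genome (mt- genes). The rule itself uses no expression value, but it was chosen with earlier results of these data known. By complex, the nuclear-encoded members comprised 36 subunits of complex I with 9 assembly factors, 4 subunits of complex II, 8 of complex III, 20 of complex IV and 16 of complex V. The mt- genes comprised 13 mRNAs, 2 rRNAs and 22 tRNAs.

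The respiratory chain passes electrons from NADH and succinate to oxygen through complexes I to IV, and complex V uses the resulting proton gradient to make ATP. Complex II is built from nuclear-encoded subunits alone, whereas the other complexes combine nuclear-encoded subunits, made in the cytosol and imported, with subunits translated inside the mitochondrion. The mt- genes are transcribed as long precursors that are cut into mRNAs, rRNAs and tRNAs, so their levels are not independent of each other. Hepatocytes are rich in mitochondria, which also oxidise the fatty acids that accumulate in a steatotic liver.

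RNA was measured in hepatocytes from steatotic livers of 6 mice, 3 wild-type (WT; mice 1, 5 and 6) and 3 with a knockout (KO) of Ptprk (mice 2, 4 and 6), which encodes the receptor-type tyrosine phosphatase PTPRK. Cells were separated by Percoll gradient and differential centrifugation, and 2 libraries per mouse, low-fat and high-fat, made up 12 libraries in 4 groups of 3. WT mouse 6 and KO mouse 6 are different animals. All libraries were made from polyA RNA. The age, sex, strain and diet of the mice and the design of the Ptprk allele were not given in the sources used here. The title of the study asks how PTPRK acts on hepatocyte metabolism in obesity, and the comparisons below describe the respiratory chain between genotypes and between fat fractions.

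Values are reads per 20 M, rescaled between libraries, and numbers after ± are standard errors of log2 fold changes from limma, a linear model fitted to all genes tested. Estimated depth lay between 15.1 and 25 M reads. Ptprk had between 2790 and 2910 reads per 20 M in the WT and between 1204 and 1370 in the KO low-fat libraries, which gave a log2 fold change, KO over WT, of -1.13 ± 0.09 and a limma adjusted p of 0.000978. High-fat libraries had between 2053 and 2477 in WT and between 1122 and 1217 in KO (log2 fold change -0.98 ± 0.09, limma adjusted p = 0.00446). That call was lost with only the libraries compared in the fit (limma adjusted p = 0.468), without the high-fat library of KO mouse 2 (0.0776) and, an alternative chosen after seeing the data, without both libraries of WT mouse 5 or 6 or of KO mouse 4 or 6 (0.339, 0.135, 0.208 and 0.114). Which exons the knockout removes was not given in the sources used here, so the reads left in KO could not be placed within the gene. The adjusted p was computed over the 16563 genes tested by the Benjamini-Hochberg method, with 0.05 as the limit below which a gene counts as called. The 12 hepatocyte markers summed to between 809429 and 1100576 reads per 20 M in every library. Of these, 9 had a negative log2 fold change, high-fat over low-fat, and 2, both cytochrome P450 enzymes, were called higher in high-fat libraries: Cyp3a11 (1.12 ± 0.23, limma adjusted p = 0.0159) and Cyp2e1 (0.71 ± 0.16, 0.0252). Markers of other cells differed between the fractions too: in the mean of both genotypes limma called 10 of 10 stellate cell, 9 of 11 Kupffer cell and 11 of 12 endothelial markers higher in high-fat libraries. The stellate markers summed to between 210 and 945 reads per 20 M in low-fat and between 2531 and 4814 in high-fat libraries, the Kupffer markers to between 554 and 1400 against 2365 to 11839, and the endothelial markers to between 4458 and 7485 against 10169 to 21140. Of these 3 lists, the gene at 0 in a library was Des, in the low-fat library of KO mouse 2. In bulk RNA, fewer cells of a type and less RNA per cell cannot be told apart.

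Some mt- values count few of the reads that the gene may have produced. Along the mitochondrial genome, mt-Nd1, mt-Nd2 and mt-Co1 had median levels of 38400, 26500 and 50300 reads per 20 M per kb. In the stretch that follows, mt-Co2, mt-Atp8, mt-Atp6, mt-Co3, mt-Nd3 and mt-Nd4l had medians between 21.4 and 51.5 per kb, and beyond it mt-Nd4, mt-Nd5 and mt-Cytb were again at 11000, 29000 and 33700 per kb. These 6 low genes lie next to each other, apart from tRNA genes that were low as well: mt-Tr had a median of 202 per kb, and mt-Td, mt-Tk and mt-Tg medians of 0.0. For 5 of them, between 98.0% and 100% of all 50-base windows occur in an annotated pseudogene transcript of the nuclear genome. mt-Atp8, which overlaps mt-Atp6, has 0.0% of such windows, and mt-Co1 and mt-Nd4, with 51.1% and 62.2%, were not low. Only annotated transcripts were searched, not the whole nuclear genome, so 0.0% does not show that no nuclear copy exists. The nuclear copies with the longest matches lie on chromosome 1 (annotation GENCODE M21, build GRCm38): Gm28661 for mt-Co2, Gm10925 for mt-Atp6, Gm28437 for mt-Co3, Gm28438 for mt-Nd3 and Gm10222 for mt-Nd4l. How reads that match more than 1 place were counted was not given in the sources used here, and its part in these low values was not tested.

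The first bases of 2 such pairs, from 1 to 60 at the 5′ end of each gene, show how closely the copies match. Capitals mark the only mismatch between mt-Nd3 and Gm28438 over 345 aligned bases, T3C, with positions counted from the first base of mt-Nd3.
mt-Nd3: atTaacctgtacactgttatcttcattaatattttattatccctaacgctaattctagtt
Gm28438: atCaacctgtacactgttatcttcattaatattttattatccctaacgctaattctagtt
mt-Co3 and Gm28437 had 0 mismatches over 783 aligned bases, and their first 60 bases are the same.
mt-Co3: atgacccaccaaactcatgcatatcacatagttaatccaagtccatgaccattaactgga
Gm28437: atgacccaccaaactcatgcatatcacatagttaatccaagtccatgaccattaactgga
Over the 12 libraries, mt-Nd3 had between 7.2 and 27.9 reads per 20 M and Gm28438 between 284.2 and 1392.2. mt-Co3 had between 12.4 and 110.5, and Gm28437 between 107.5 and 562.1. In both pairs the nuclear copy was listed above the mitochondrial gene, as was Gm10222 (99.2 to 520.8) above mt-Nd4l (4.1 to 42.3). The remaining pairs went the other way in their medians, with overlapping ranges: mt-Atp6 had a median of 30.5 against 26.6 for Gm10925, and mt-Co2 14.7 against 12.9 for Gm28661. The other 7 mt- mRNAs, mt-Nd1, mt-Nd2, mt-Nd4, mt-Nd5, mt-Nd6, mt-Cytb and mt-Co1, had at least 6072 reads per 20 M in every library and are used below for the mt- mRNAs.

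**Figure D1:**
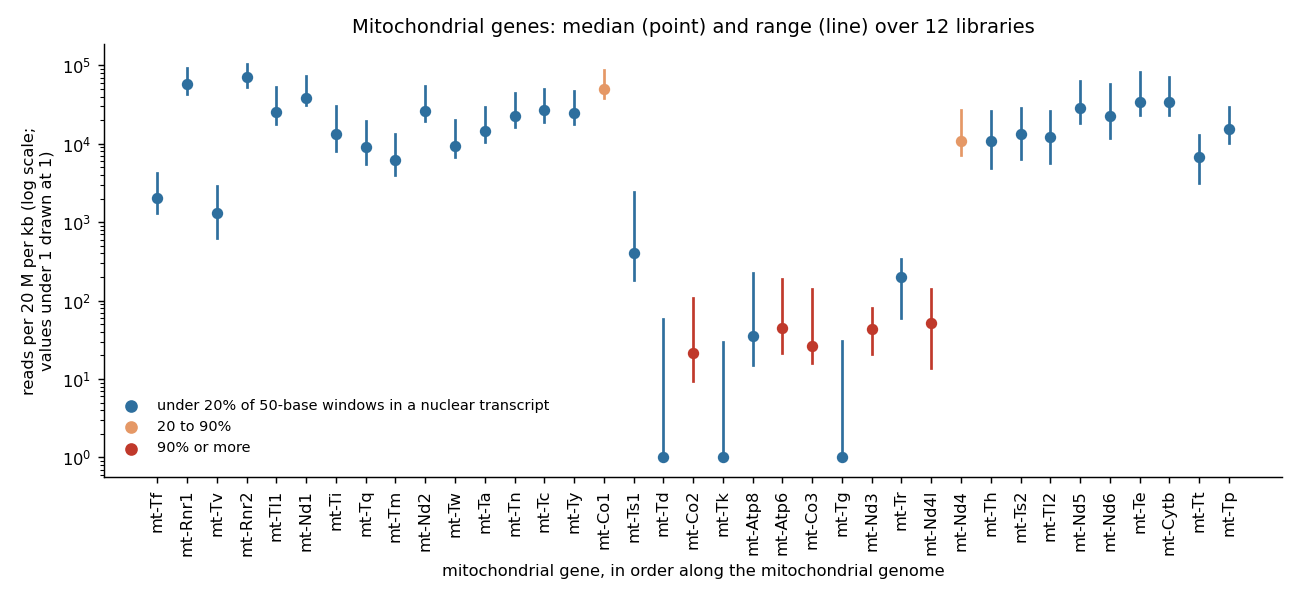
The level of each mt- gene is plotted in its order along the mitochondrial genome as reads per 20 M per kb of gene length on a log scale; points are medians and lines the range over 12 libraries, and colours give the share of 50-base windows found in nuclear transcripts. From mt-Co2 to mt-Nd4l the mRNA medians lie between 21.4 and 51.5 per kb, while mt-Co1 and mt-Nd4 on either side lie at 50300 and 11000.

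Levels of the other members are compared per kb of exon length. In this paragraph the level of a gene is its mean over the libraries, whereas the mt- levels above were medians over the libraries. This length covers the exons of all annotated transcripts of a gene, so levels per kb also depend on the annotation. The median over the nuclear-encoded subunits was 885 reads per 20 M per kb in complex I, 2340 in complex II, 2140 in complex III, 1840 in complex IV and 1100 in complex V. The complex I assembly factors, which build the complex without staying in it, lay between 30.0 and 340 per kb. The highest nuclear-encoded level per kb was that of Atp5a1, the alpha subunit of the ATP synthase head, at 6610. Cox6a1 led complex IV at 4970 and Sdha complex II at 3010. The rRNAs mt-Rnr1 and mt-Rnr2 stood at 59200 and 72100 per kb, and mt-Co1, the catalytic core of complex IV, at 54000.

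Complex IV has subunits with paralogs of different tissues, and the libraries held the widespread or liver forms. The values below are reads per 20 M without division by length, and each pair is given as a range. Cox4i1 had between 4315 and 6039 reads per 20 M, and Cox4i2, its paralog, between 0.0 and 2.9. Cox6a1 ranged from 2979 to 4398, and the heart and muscle form Cox6a2 from 0.0 to 1.1. The pattern was alike for Cox6b1, with 2150 to 3602, against Cox6b2, known from testis, with 0.0 to 9.7. Cox8a had between 2344 and 3562, the muscle form Cox8b between 0.0 and 3.9, and Cox8c was at 0.0 in every library, where 3 reads would correspond to between 2.4 and 3.98 reads per 20 M. Cox7a2 ranged from 1454 to 2198, Cox7a2l, which takes part in supercomplex assembly, from 977 to 1534, and the heart and muscle form Cox7a1 from 15.4 to 56.0. Ndufa4, a complex IV subunit despite its name, had between 2637 and 3592 and its paralog Ndufa4l2 between 14.7 and 32.0. Of the paralogs, Cox4i2, Cox6a2, Cox6b2, Cox8b and Cox8c did not pass the filter of 10 reads per 20 M in 3 libraries, nor did Cox7b2. With mt-Td, mt-Tk and mt-Tg these make up the 9 members that were not tested, which left 121, of which 87 nuclear-encoded and 34 mt-.

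Between the genotypes, no member passed the test in either fraction. limma called 0 of 121 members in low-fat libraries and 0 of 121 in high-fat libraries at an adjusted p under 0.05, and at an unadjusted p under 0.05 it again found 0 and 0. Over all 16563 genes tested, 0.00604% were called in low-fat and 0.00604% in high-fat libraries, and 1.64% and 1.97% had an unadjusted p under 0.05. With the replicate number as a block the counts of called members were also 0 and 0.

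In low-fat libraries the median log2 fold change, KO over WT, was 0.03 over the nuclear-encoded members and 0.07 over the 7 mt- mRNAs outside the low stretch, beside 0.00 over all genes tested. In high-fat libraries the medians were 0.11 and -0.20, beside 0.00 over all genes. Single libraries turned these directions, except that of the nuclear-encoded members in high-fat libraries. There 82 of 87 were positive, and the median lay between 0.03 and 0.22 with libraries left out. Without the high-fat library of WT mouse 5 the median of the 7 mt- mRNAs in high-fat libraries was 0.10, with 7 of 7 positive in place of 0 of 7, and that of all 34 mt- genes was 0.15 in place of -0.105 (33 positive in place of 4). In low-fat libraries 63 of 87 nuclear-encoded members were positive, but 15 without the low-fat library of KO mouse 2 (median -0.07) and 22 without that of WT mouse 5 (median -0.045). The low-fat median of the 7 mt- mRNAs became -0.05 without the low-fat library of WT mouse 1 and -0.03 without that of KO mouse 4. The half-width of the unadjusted 95% interval of a single gene was in the median 0.31 for nuclear-encoded members and 0.56 for these mt- mRNAs. Differences below about that size could not be seen gene by gene, and a call at the adjusted p needs a larger difference. Atp5b, the catalytic beta subunit of complex V, had 25693, 21039 and 24919 reads per 20 M in low-fat libraries of WT mice 1, 5 and 6, and 28888, 20990 and 23900 in those of KO mice 2, 4 and 6. The groups overlapped, and the log2 fold change was 0.04 ± 0.14, with a 95% interval from -0.28 to 0.35. In high-fat libraries Atp5b had 20673, 18619 and 22563 in WT and 19742, 21759 and 23302 in KO, which also overlapped (log2 fold change 0.07 ± 0.14, limma adjusted p = 1.0).

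Among the members, Cox7a1 had the smallest unadjusted p in the low-fat comparison. It had 22.7, 27.1 and 25.6 reads per 20 M in WT and 56.0, 34.6 and 26.7 in KO low-fat libraries, so the groups overlapped. The log2 fold change was 0.54 ± 0.28 (unadjusted p = 0.0746, limma adjusted p = 1.0). In high-fat libraries it had 20.8, 15.4 and 19.9 in WT and 22.1, 27.9 and 27.9 in KO, where the groups did not overlap, with a log2 fold change of 0.44 ± 0.28 (limma adjusted p = 1.0). Cox7a1 rests on few reads in each library. The interaction of genotype and fat fraction was not called for any of 121 members (0 with an unadjusted p under 0.05, and 0 with the mouse block), against 0.0% of all genes called and 0.145% with an unadjusted p under 0.05.

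**Figure D2:**
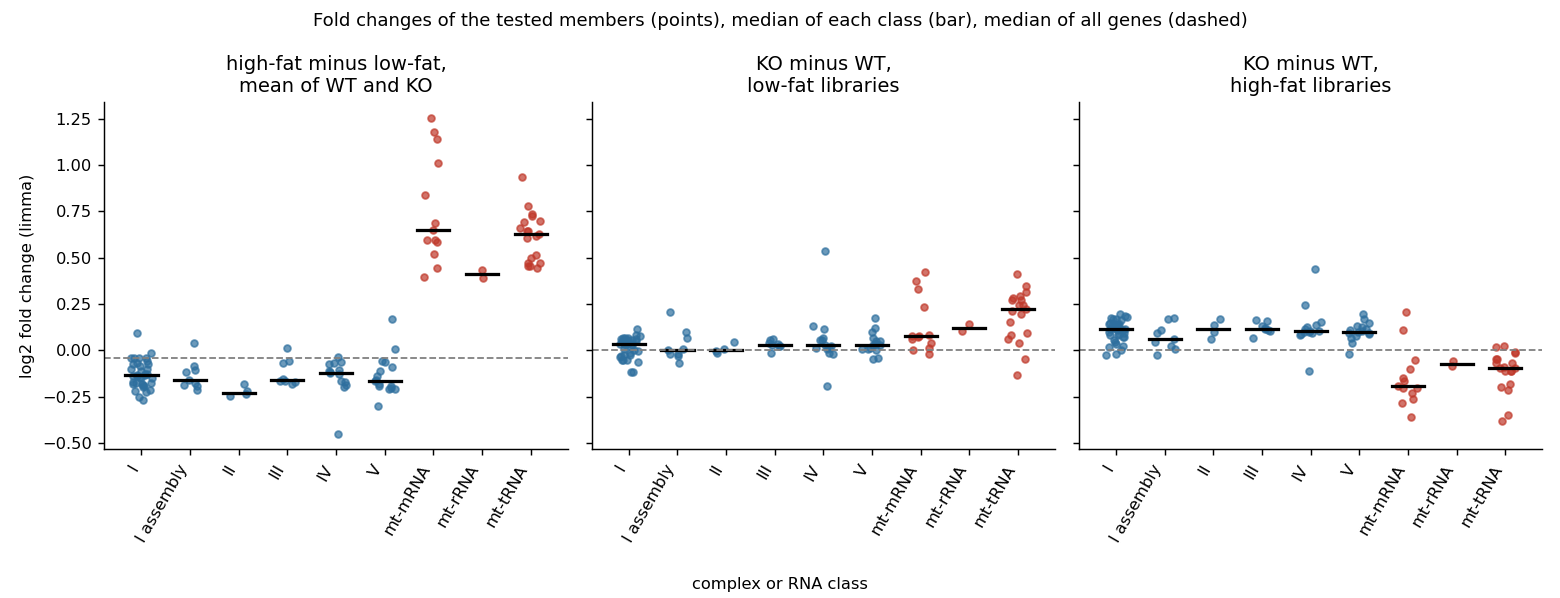
Each point is the limma log2 fold change of a tested member, arranged by complex or RNA class, for high-fat minus low-fat libraries (mean of both genotypes) and for KO minus WT in each fraction; bars are class medians and the dashed line is the median of all genes. In the fraction comparison the mt- classes lie above 0, with values from 0.39 to 1.25, and the nuclear-encoded classes mostly below it, while none of the points in any panel passed the adjusted test.

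Between the fat fractions the mt- genes and the nuclear-encoded members differed in sign. In the mean of both genotypes, all 34 mt- genes tested had a positive log2 fold change, high-fat over low-fat, with a median of 0.62, while 82 of 87 nuclear-encoded members had a negative one, with a median of -0.15. The median over all genes tested was -0.04. When only genes with a mean value of at least 100 were kept, it was -0.08, beside -0.15 for the nuclear-encoded members. The 12 hepatocyte markers had a median of -0.14, with 9 negative and 3 positive. A median near that of the nuclear-encoded members was thus not particular to the respiratory chain. None of the 121 members passed the adjusted test without the mouse as a block, where limma called 5.76% of all genes. At an unadjusted p under 0.05 there were 26 members higher, all mt-, and 11 lower, all nuclear-encoded, against 10.6% and 8.27% of all genes. With the mouse as a block, 5 of 121 members were called, all mt- and higher, against 10.5% of all genes, so the count of called members lay below the background share. With the values scaled as deposited, the median of the nuclear-encoded members was -0.07, with 66 of 87 negative, and that of all genes 0.03. In that scaling limma called 5 members, all mt- and higher (5.74% of all genes), with TMM computed without mt- genes 1 (5.77%) and with a correlation within mice 12 (11.5%). Without both libraries of KO mouse 2, an alternative chosen after seeing the data, the nuclear-encoded median was -0.06, with 65 of 87 negative. The count of called members also depended on single libraries. Without the high-fat library of WT mouse 6 limma called 16, all mt- and higher (6.38% of all genes), and without both libraries of that mouse 12 (4.36%). It called 1 and 2 without that of WT mouse 1 or 5 (4.11% and 4.6%), and 3 without the low-fat library of KO mouse 4 (6.85%): mt-Nd6, mt-Tp and Atp5g1.

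The sum over mt- genes took between 1.59% and 2.15% of the deposited reads in low-fat libraries and between 2.18% and 4.24% in high-fat libraries. By mouse, the share went from 1.59% to 2.89% in WT mouse 1, from 1.91% to 4.24% in WT mouse 5 and from 2.08% to 2.18% in WT mouse 6. In KO mice 2, 4 and 6 it went from 1.99% to 3.07%, from 2.15% to 2.27% and from 1.73% to 2.71%. The high-fat library thus held the larger share of the deposited reads in each of the 6 mice, by little in WT mouse 6 and KO mouse 4. In the rescaled values, 26 of the 34 mt- genes tested were lower in the high-fat library of WT mouse 6, so its direction depends on the scaling. The nuclear-encoded members together took between 1.0% and 1.22% in low-fat and between 0.914% and 1.12% in high-fat libraries, ranges that overlap.

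For complex I, mt-Nd1, a core subunit of the membrane arm, had 31287, 31822 and 38109 reads per 20 M in the low-fat libraries of WT mice 1, 5 and 6, and 49384, 69071 and 34862 in their high-fat libraries. KO mice 2, 4 and 6 had 34975, 36043 and 30155 in low-fat and 45686, 37471 and 45378 in high-fat libraries. The high-fat library was above the low-fat library in 5 of 6 mice and below it in WT mouse 6, and the fractions overlapped in WT but not in KO. Its log2 fold change in the mean of both genotypes was 0.45 ± 0.15 (limma adjusted p = 0.13).

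mt-Nd6, the complex I subunit encoded on the other strand, overlaps mt-Nd5. With no strand information in the sources used here, reads from the overlap cannot be assigned to either gene. Nor can reads from precursors of the opposite strand be told apart from reads of mt-Nd6. The values listed for mt-Nd6 were 6072, 9064 and 10206 reads per 20 M in WT low-fat and 15696, 29969 and 11065 in WT high-fat libraries. KO values were 9314, 12717 and 7738 in low-fat and 19298, 12589 and 13339 in high-fat libraries. High-fat values lay above all low-fat values in WT, while in KO the high-fat value of mouse 4 lay just below its own low-fat value. Its log2 fold change, 0.84 ± 0.24, was the highest among the 7 mt- mRNAs outside the low stretch, with a limma adjusted p of 0.0663, and of 0.039 with the mouse as a block.

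In complex III, mt-Cytb, its subunit made inside the mitochondrion, had 26788, 35078 and 39057 reads per 20 M in WT low-fat and 51621, 81631 and 38163 in WT high-fat libraries. The KO libraries had 36225, 37993 and 28865 in low-fat and 54549, 40126 and 49128 in high-fat samples. WT mouse 6 was the exception here too, with nearly equal levels, and the KO fractions did not overlap. With both genotypes averaged its log2 fold change was 0.59 ± 0.18 (limma adjusted p = 0.0901). Among the 7 mt- mRNAs, mt-Co1 of complex IV had the lowest log2 fold change, 0.40 ± 0.16 (limma adjusted p = 0.208), and mt-Nd2, mt-Nd4 and mt-Nd5 lay between, at 0.59, 0.69 and 0.65.

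The rRNAs of the mitochondrial ribosome, mt-Rnr1 and mt-Rnr2, had log2 fold changes of 0.44 ± 0.15 and 0.39 ± 0.15 (limma adjusted p = 0.121 and 0.173). Both were higher in the high-fat library of each of the 6 mice. The 19 mt- tRNAs tested had log2 fold changes between 0.45 and 0.94, with a median of 0.63. The libraries were made from polyA RNA, and whether reads over tRNA genes came from tRNAs or from longer precursors was not tested. mt-Tp, the proline tRNA gene, had the smallest adjusted p of all members: its levels were 680.0, 910.6 and 1013.8 in WT low-fat, 1371.9, 1962.9 and 969.6 in WT high-fat, 793.1, 1065.8 and 803.9 in KO low-fat and 1409.9, 1186.5 and 1232.9 reads per 20 M in KO high-fat libraries. All but the high-fat library of WT mouse 6 exceeded the low-fat libraries of their genotype. The log2 fold change was 0.61 ± 0.16 (limma adjusted p = 0.0511, and 0.0402 with the mouse as a block). mt-Tq, the glutamine tRNA gene, had 0.65 ± 0.22 (0.121, and 0.0406 with the block).

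The largest log2 fold changes of all members came from genes of the low stretch. mt-Co3, a complex IV subunit, had 12.4, 13.5 and 17.1 reads per 20 M in WT low-fat, 27.4, 110.5 and 23.9 in WT high-fat, 14, 12.8 and 16.4 in KO low-fat and 27.6, 24.9 and 48.5 in KO high-fat libraries. High-fat libraries lay above all low-fat libraries, and that of WT mouse 5 stood far above the rest. Its log2 fold change was 1.25 ± 0.34 (limma adjusted p = 0.0554, and 0.0356 with the mouse as a block). mt-Atp6, which forms the proton path of complex V with the c-ring, followed at 1.18 ± 0.33 (limma adjusted p = 0.0622, and 0.0161 with the block), mt-Co2 at 1.14 and mt-Atp8 at 1.01. These values describe the few reads assigned to these genes, not the reads assigned to their nuclear copies. The median over these 6 mRNAs was 1.08, and over the 7 outside the low stretch 0.59.

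**Figure D3:**
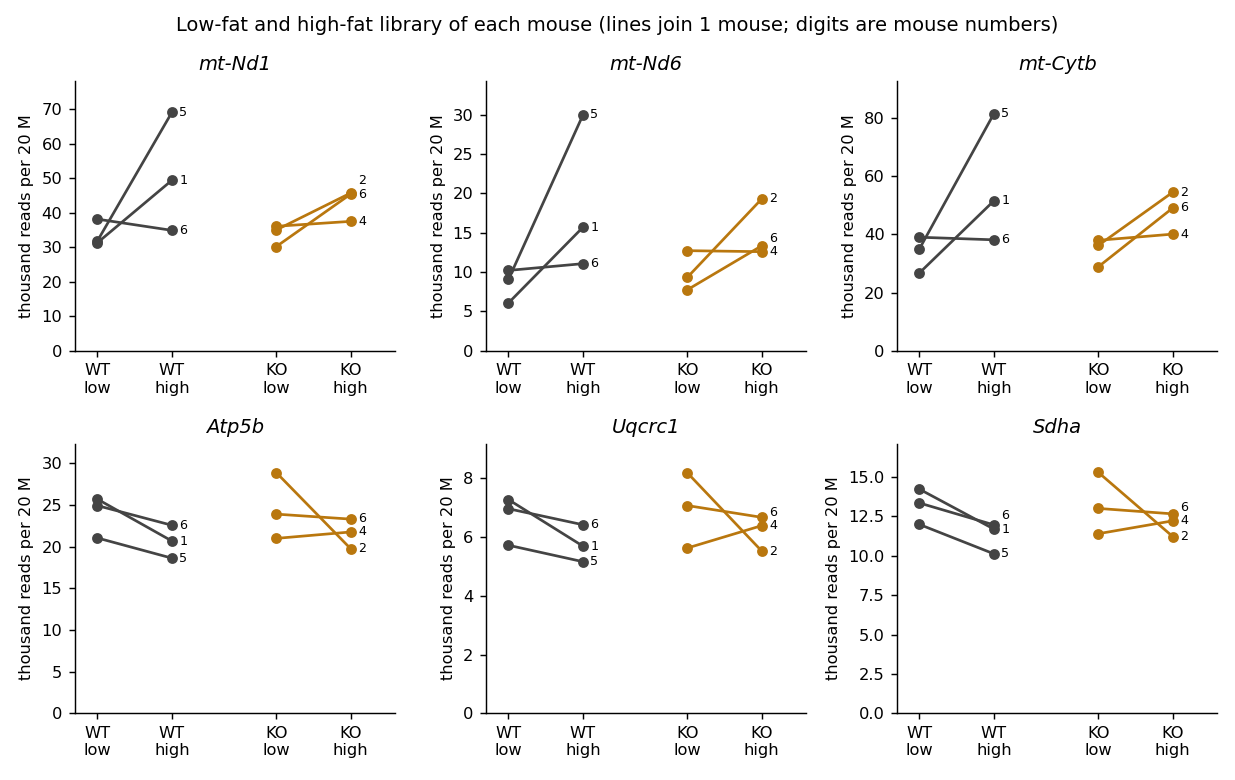
The low-fat and high-fat library of each mouse are joined by a line for 3 mt- mRNAs (upper row) and 3 nuclear-encoded subunits (lower row), with mouse numbers beside the points and the axis in 1000 reads per 20 M. Lines of the mt- mRNAs go up in 4 mice and are nearly level in WT mouse 6 and KO mouse 4, while Atp5b, Uqcrc1 and Sdha go down in each mouse except KO mouse 4.

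Of the 36 nuclear-encoded complex I subunits, 35 had a negative log2 fold change, high-fat over low-fat, and the median was -0.13. Ndufa12, an accessory subunit, was lowest, at -0.27 ± 0.11 (limma adjusted p = 0.189), and Ndufb3, another accessory subunit, was the exception at 0.09 ± 0.11 (0.673). The counts by complex depend on the scaling and on KO mouse 2. Scaled as deposited, 26 of 36 subunits were negative in complex I, 5 of 8 in complex III, 11 of 14 in complex IV and 12 of 16 in complex V, and without both libraries of KO mouse 2 the counts were 26, 5, 11 and 11. In both settings all 4 subunits of complex II and 8 of 9 assembly factors were negative. Among the 9 assembly factors, 8 were negative, with a median of -0.16. Ndufaf4, which acts at a step of complex I assembly, had lower levels in high-fat cells in 6 of 6 mice, with log2 differences between -0.45 and -0.01 (log2 fold change -0.19 ± 0.08, limma adjusted p = 0.211).

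All 4 subunits of complex II, succinate dehydrogenase, which also serves the tricarboxylic acid (TCA) cycle, were negative, with a median of -0.23. Sdha, its flavoprotein, had 14221, 11983 and 13344 reads per 20 M in WT low-fat and 11687, 10119 and 11956 in WT high-fat libraries, groups that did not overlap. In KO it had 15290, 11397 and 13001 in low-fat and 11216, 12214 and 12656 in high-fat libraries, groups that overlapped. Its log2 fold change was -0.18 ± 0.09 (limma adjusted p = 0.309), and that of Sdhc, a membrane anchor, -0.25 ± 0.10 (0.209). In complex III 7 of 8 nuclear-encoded subunits were negative, with a median of -0.16. Uqcrc1, a core protein, was lowest at -0.18 ± 0.11 (0.384) and Uqcr11, a small subunit, was highest at 0.01 ± 0.10 (0.953).

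In complex IV 14 of 14 tested nuclear-encoded subunits were negative, with a median of -0.12. They ranged from -0.45 ± 0.19 for Cox7a1 (limma adjusted p = 0.235) to -0.04 ± 0.21 for Ndufa4l2 (0.943), both at few reads. Cox4i1, which binds ATP as a regulatory subunit, had -0.07 ± 0.10 (0.75). Cox7b, a small structural subunit, had lower levels in high-fat cells in 6 of 6 mice, with log2 differences between -0.45 and -0.01. In complex V 14 of 16 were negative, with a median of -0.16. Atp5g1, which encodes the c-ring subunit, as Atp5g2 and Atp5g3 also do, was lowest. It had 3341, 2686 and 3045 reads per 20 M in WT low-fat and 2242, 2193 and 2644 in WT high-fat libraries, without overlap. In KO it had 3776, 2466 and 3273 in low-fat and 2316, 2770 and 2891 in high-fat libraries, with overlap. This gave a log2 fold change of -0.30 ± 0.11 (limma adjusted p = 0.16). By mouse, the log2 difference, high-fat minus low-fat, lay between -0.7 and 0.17 for Atp5g1. For Atp5g2 it lay between -0.47 and 0.07, and for Atp5g3 between -0.47 and 0.27. Atp5k, the e subunit at the dimer interface, had the highest value of all nuclear-encoded members, 0.17 ± 0.10 (0.403), and was higher in 5 of 6 mice.

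Within each genotype fewer members stood out. In WT, limma called 0 of 121 members (0.0% of all genes), with 20 mt- genes higher and 4 nuclear-encoded members lower at an unadjusted p under 0.05 (7.73% and 3.77% of all genes). In KO, limma called 0 of 121 (0.894% of all genes), with 2 mt- genes higher and 0 members lower at an unadjusted p under 0.05 (6.86% and 2.08%). With the mouse as a block the counts of called members were 0 in WT and 0 in KO, against 1.02% and 2.13% of all genes. The medians were 0.76 for the mt- genes and -0.18 for the nuclear-encoded members in WT, and 0.49 and -0.10 in KO. Without both libraries of KO mouse 2 the nuclear-encoded median in KO was 0.07. Since no interaction was called, these counts do not show that the genotypes differ.

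The fold changes were carried unevenly by the mice. For the mt- genes the median log2 difference, high-fat minus low-fat, was 1.06, 1.29 and -0.12 in WT mice 1, 5 and 6, and 0.79, 0.03 and 0.66 in KO mice 2, 4 and 6. For the nuclear-encoded members it was -0.24, -0.26 and -0.05 in the WT mice and -0.45, 0.14 and 0.00 in the KO mice. Thus mt- genes were higher in 34, 34, 8, 34, 19 and 33 of 34 cases, and nuclear-encoded members were lower in 80, 83, 64, 86, 6 and 42 of 87 cases, in the same order of mice. KO mouse 4 went against the nuclear-encoded direction and WT mouse 6 against the mt- direction. Counting a difference of any size, 6 mt- genes were higher in 6 of 6 mice (mt-Rnr1, mt-Rnr2, mt-Co2, mt-Atp8, mt-Atp6 and mt-Co3) and 2 nuclear-encoded members lower, against 9.74% of all genes higher and 11.7% lower. For mt-Co2 this rests on a difference below the rounding in WT mouse 6, with 13.9 reads per 20 M in both libraries.

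RNAs held wholly or partly in the nucleus varied between libraries beside these values. The sum over Malat1, Neat1, Mlxipl, Nlrp6 and Gcgr went, from low-fat to high-fat, from 78311 to 164676 reads per 20 M in WT mouse 1, from 122317 to 121220 in WT mouse 5 and from 42239 to 47095 in WT mouse 6. In KO mice 2, 4 and 6 it went from 62670 to 165051, from 144495 to 46425 and from 44114 to 47294. The 5 libraries with a sum of at least 121220 had a median centred log2 level of the nuclear-encoded members between -0.28 and -0.05. In the 7 libraries with a sum of at most 78311 it lay between 0.03 and 0.27. For the mt- genes the same 2 sets of libraries overlapped, with medians from -0.26 to 0.97 and from -0.68 to 0.18. This split was not part of the planned comparisons. KO mouse 4, whose nuclear-encoded members were higher in its high-fat library, was the mouse whose sum was far lower there. In that mouse Malat1 went from 72265 to 21611 and Neat1 from 49815 to 9927. Gcgr went from 6739 to 5793 and Nlrp6 from 4934 to 3539, and Mlxipl made up the rest of the fall. In reads the fall of the sum was thus mainly that of Malat1 and Neat1, while the other RNAs of the list fell as well. The part of these RNAs, and of the stellate, Kupffer and endothelial markers that were higher in the high-fat library of all 6 mice, in the fold changes of the members was not tested. The stellate sum was 3.34 times as high in the high-fat library of WT mouse 6 and 5.62 times in that of KO mouse 4, the mice with mt- medians near 0, and 3.86 to 17.0 times in the others. The endothelial sum was 1.51 and 1.72 times as high in these mice and 1.61 to 3.2 times in the others, and the Kupffer sum 3.31 and 3.18 times against 1.78 to 18.0 times. The endothelial ratios understate the rise of the called markers, since Dpp4, the endothelial marker not called, makes up much of the low-fat sum. It had 2914 to 3443 reads per 20 M in low-fat and 2770 to 3798 in high-fat libraries (log2 fold change 0.03 ± 0.08).

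**Figure D4:**
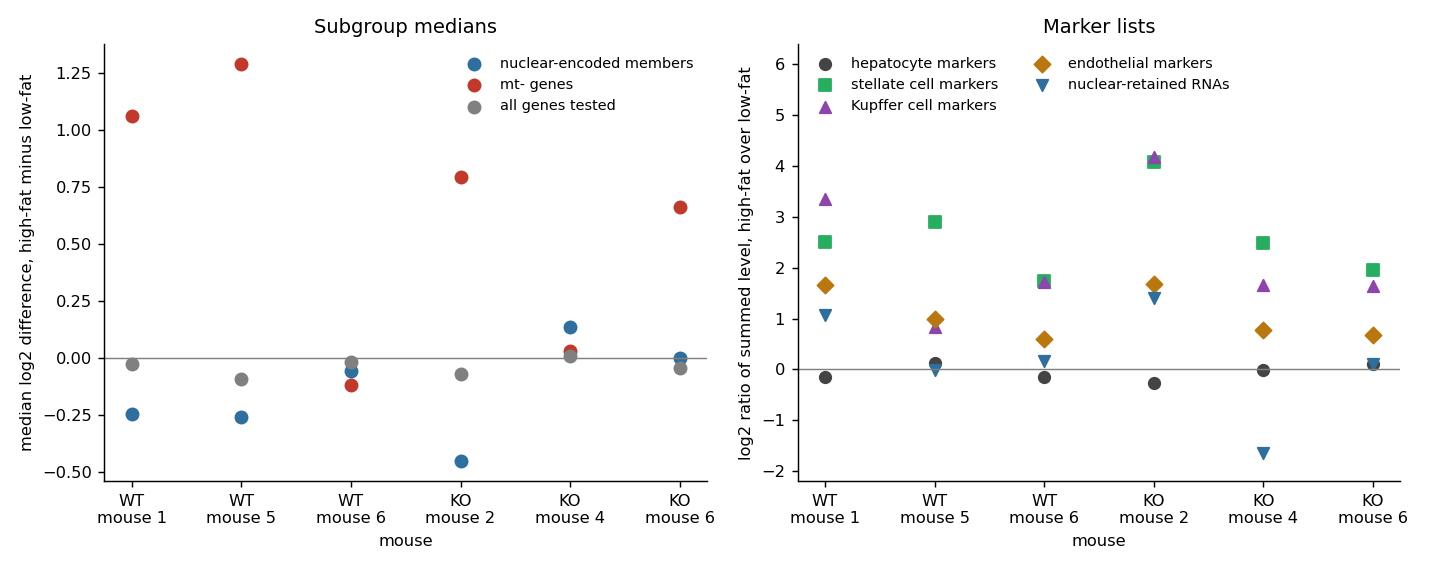
For each mouse the left panel gives the median log2 difference, high-fat minus low-fat, of nuclear-encoded members, mt- genes and all genes tested, and the right panel the log2 ratio of summed marker levels. The mt- medians run from -0.12 in WT mouse 6 to 1.29 in WT mouse 5, the nuclear-encoded medians from -0.45 in KO mouse 2 to 0.14 in KO mouse 4, and the nuclear-retained ratio of KO mouse 4 is -1.64.

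Other genes of mitochondrial energy metabolism were followed in 6 lists. No gene of these lists was called between the genotypes in either fraction. Between the fractions, in the mean of both genotypes, none of 24 carriers and other subunits, 39 assembly factors and 29 genes of mitochondrial DNA expression was called, with or without the mouse as a block. Their medians were -0.10, -0.13 and -0.12, near that of the nuclear-encoded members, and 22 of 24, 36 of 39 and 23 of 29 were negative. Of 10 regulators of mitochondrial genes, limma called 1: Esrra, a nuclear receptor that acts on respiratory chain genes, fell. It had 967.3, 879.6 and 829.0 reads per 20 M in WT low-fat and 749.7, 727.3 and 717.8 in WT high-fat libraries, and 1014.0, 908.7 and 1049.6 in KO low-fat and 787.9, 925.7 and 825.1 in KO high-fat libraries. The WT fractions did not overlap and the KO fractions did, by the high-fat library of mouse 4. The log2 fold change was -0.26 ± 0.07 (limma adjusted p = 0.0478). This 1 call among 10 genes stands beside 5.76% of all genes called. It held in 3 of 18 fits with libraries left out and in 4 of 9 other alternatives, with adjusted p-values between 0.0152 and 0.224, and the log2 fold change was negative in each.

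Ppargc1a, the coactivator PGC-1alpha, had -0.41 ± 0.15 (limma adjusted p = 0.17), and was called with the mouse as a block (0.00867), where 10.5% of all genes were called. Its values were 563.2, 297.1 and 427.3 in WT low-fat, 400.3, 254.6 and 303.6 in WT high-fat, 549.6, 498.8 and 434.9 in KO low-fat and 393.5, 350.4 and 364.5 reads per 20 M in KO high-fat libraries. Each mouse had the lower value in its high-fat library. Of 18 genes of the TCA cycle 16 were negative, with a median of -0.17, and none was called without the block. With it Fh1, fumarase, and Pdhb, a subunit of pyruvate dehydrogenase, were called lower, 2 of 18 against 10.5% of all genes, with log2 fold changes of -0.29 ± 0.10 and -0.21 ± 0.11 (limma adjusted p = 0.0311 and 0.04 with the block, 0.133 and 0.317 without). Of 16 genes of the mitochondrial stress response none was called without the block. With it Gdf15, a secreted stress factor, was called higher (0.64 ± 0.37, limma adjusted p = 0.0172) and Atf4, a transcription factor of the stress response, lower (-0.23 ± 0.10, 0.0393), 2 of 16 against 10.5% of all genes.

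The promoters of the nuclear-encoded members were searched for sequence motifs of factors known for respiratory chain genes. RefSeq windows of 300 bases, from 250 before to 50 after the start site (GRCm38.p6), were matched by name for 77 of 93 members, and both strands were searched. The motif GCGCATGCG of nuclear respiratory factor 1 (NRF1) was found in 10 of 77 members (13%), and in 1.95% of all genes with such a window. The YY1 motif AAGATGGCG was found in 9 (11.7%, against 1.64%), the motif CCGGAAGT of ETS factors such as GABPA in 5 (6.49%, against 4.31%) and TATAAA in 7 (9.09%, against 15.7%). No motif searched is part of another. NRF1 and ETS stretches, 60 bases on the strand of the gene with the match in capitals, are shown for members from different parts of the range of log2 fold changes between the fractions.
Atp5k: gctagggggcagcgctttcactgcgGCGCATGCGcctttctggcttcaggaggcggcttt
Uqcr11: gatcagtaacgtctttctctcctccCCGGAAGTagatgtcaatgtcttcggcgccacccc
Ndufaf4: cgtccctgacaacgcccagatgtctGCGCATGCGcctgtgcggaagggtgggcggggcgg
Ndufa8: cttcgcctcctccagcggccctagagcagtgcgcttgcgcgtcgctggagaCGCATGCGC
Relative to the start site, the match begins at position -50 in Atp5k (chromosome 5), at -66 in Uqcr11 (chromosome 10), at -113 in Ndufaf4 (chromosome 4) and, on the other strand, at -9 in Ndufa8 (chromosome 2). Members with the NRF1 letters had both signs of log2 fold change between the fractions: Atp5k stood at 0.17, Ndufaf4 at -0.19 and Ndufa8, an accessory subunit of complex I, at -0.25. A match of letters describes the window and does not show that a factor binds there.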

How the data were processed

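The deposited values are treated as a score, since they are not raw counts: before deposit the authors brought the reads per gene to 20 M for every library and rounded up, as read from the values themselves (columns sum to 20.01 M). The genome build named is mm9, per the submitters' processing notes. The aligner, counter, strand setting and treatment of reads that match several places were not given in the sources used here. Depth was estimated from the rounding pattern. Counts were not recovered as such, so no count model was used.

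Values were rescaled by the trimmed mean of M values (TMM, own implementation) and taken as log2(value + 2), which understates changes of low genes. The 16563 genes with at least 10 in at least 3 libraries were fitted with limma 3.58.1 in R 4.3.3, with 4 group means over 12 libraries and an intensity trend, and two-sided p-values were adjusted by the Benjamini-Hochberg method. The fit was run on simulated data with independent libraries and no effect of the mouse. That run therefore does not show how the fit behaves with paired libraries or uneven mice. Low-fat and high-fat libraries of a mouse are paired by the mouse names in the labels. Deviations of paired libraries correlated at 0.471 to 0.581 in WT, and at 0.0405, -0.0116 and 0.458 in KO mice 2, 4 and 6. A second fit had the mouse as a block, and for KO against WT the replicate number. Replicates of a group are different mice.

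Exon lengths and nuclear copies of mt- genes came from GENCODE M21 (GRCm38), and promoters from RefSeq. No coordinates were taken from them for the deposited values. The members and all gene lists were chosen with earlier results of these data known. Genes named are members called without the block, or up to 6 called with it, the mt- mRNAs and rRNAs, the highest and lowest log2 fold change and the highest mean value per complex, paralogs of complex IV subunits, and from each list the genes called or the extremes. A gene that this rule names is not reported here. Cox7b, Ndufaf4, Ndufa8, Atp5a1, Atp5g2, Atp5g3 and the list genes called only with the block were named after their values were seen. Alternatives changed the scaling, the added constant, the filter, the block and the libraries included.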

Additional observations from a re-analysis of the deposited data

How the results depend on the processing

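In 5 of the 6 comparisons the number of called members was 0 under every alternative run. Between the fractions in the mean of both genotypes it was 0, and became 5 with the values scaled as deposited (5.74% of all genes called), 1 with TMM computed without mt- genes (5.77%), 5 with the mouse as replicate block (10.5%) and 12 with a correlation within mice (11.5%). Leaving out libraries gave between 0 and 16, the latter without the high-fat library of WT mouse 6. Without both libraries of that mouse, an alternative chosen after seeing the data, it was 12 (4.36%). The cause was not tested. The replicate block added these 5 calls and changed no other count of called members. Of 87 nuclear-encoded members, 16 turned sign between the fractions scaled as deposited and up to 17 with libraries left out. Among the members that the naming rule gives, these were Cox4i1 (0.007 scaled as deposited, -0.135 to 0.014 with libraries left out), Ndufa4l2 (0.03 scaled as deposited, -0.279 to 0.142), Cox6a1 (-0.149 to 0.033) and Uqcr11 (-0.058 to 0.107). The median over mt- genes lay between 0.46 and 0.84 with libraries left out, and that over nuclear-encoded members between -0.21 and -0.06, the latter without KO mouse 2. In each of these fits all 34 mt- genes were positive, and between 65 and 85 of 87 nuclear-encoded members negative. Between the genotypes the mt- median lay between -0.04 and 0.30 in low-fat and between -0.43 and 0.16 in high-fat libraries, and the nuclear-encoded median between -0.07 and 0.13 and between 0.03 and 0.22. Ptprk in high-fat libraries kept its direction, at -0.977 with only the libraries compared (limma adjusted p = 0.468) and -1.062 to -0.914 with libraries left out. KO and WT libraries of a replicate number share only that number. Their deviations correlated at 0.252, 0.397 and 0.295 in low-fat and at 0.49, -0.173 and 0.381 in high-fat libraries. The depth of 3 reads, 2.4 to 3.98 reads per 20 M, limits the lowest members.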
